A study of Mus musculus with 8 samples.

Results

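RNA that was captured with nuclei was compared with RNA that was counted under barcodes holding very little. Both came from the same 4 single-nucleus RNA-seq libraries of control optic nerves (ONs). In each library, UMI counts (unique molecular identifiers, which mark single captured RNA molecules) were summed over barcodes with at least 1000 UMIs of which mitochondrial genes gave under 5%, and these barcodes are called nuclei here. They were summed separately over all barcodes with fewer than 100 UMIs, called small barcodes here, which the comparison takes as RNA from outside nuclei. This gave 8 sums, a nuclear and a small-barcode sum for each of the 4 control libraries of a series of 8. The 4 libraries held 18100 nuclei and 3069479 small barcodes. They were made from female mice at P120 (120 days of age) of the genotype Piezo2f/f, which carry floxed Piezo2 alleles and no Cre. Each library was a pool of 6 ONs from 3 mice, so the replicates are pools and not single mice. The p-values and standard errors (SE) of single genes below also borrow from the spread of other genes. They can therefore understate the spread of a single gene between pools. The other 4 libraries, of the same age, sex and pool size, are labelled Olig2-cre;Piezo2f/f cKO. Those mice carry the same floxed alleles and Cre in the Olig2 gene, which acts in the oligodendrocyte (OL) lineage and takes up an Olig2 allele. All nerves were broken open with a Dounce homogenizer and the nuclei were separated by ultracentrifugation, so both sums hold only RNA that came through that step.

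A gene is copied into RNA in the nucleus, introns and all. The finished mRNA is then spliced and exported to the cytoplasm to be translated, while introns, unfinished transcripts and several long noncoding RNAs (lncRNAs) remain in the nucleus. In the ON, the cytoplasm that can leak from broken tissue belongs to OLs and their myelin, astrocytes, fibroblasts of the nerve sheath, microglia, blood cells and the axons of retinal ganglion cells (RGCs), whose nuclei lie in the retina.

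Checked against OL markers, both kinds of sum carried RNA of the tissue's main cell type: Mog, Mag, Mbp, Mobp and 6 other OL markers together gave 10961 to 14088 counts per 1000000 UMIs (CPM) in the 4 nuclear sums and 17210 to 20666 CPM in the 4 small-barcode sums. The small barcodes were a small part of each library. They held 882575 to 1293855 UMIs per library, or 1.81% to 2.99% of all UMIs, with a median of 1 UMI per barcode, and 53.2% to 66.9% of their UMIs were in barcodes with a single UMI. The nuclei held 32.5% to 46.2% of all UMIs, with a median of 2576 to 3196 UMIs per nucleus. Most of the rest lay in another set, 67005 to 81102 barcodes of 100 to below 1000 UMIs per library with 51.3% to 65.5% of all UMIs. Barcodes of 100 to below 500 UMIs, called the plateau here and added after the data had been seen, held 19373494 to 28416758 UMIs per library. Plateau values are given beside the others below, and the plateau and small-barcode comparisons share the same nuclear sums.

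For many genes the small barcodes lay between the plateau and the nuclei. Of 11249 tested genes with at least 10 CPM in the small-barcode sums, 4902 (43.6%) lay between the other two in 4 of 4 libraries, 361 lay above both and 157 lay below both. Across the 4422 genes with at least 200 counts in the small-barcode sums, Pearson's r of log2 CPM was 0.622 to 0.720 between small barcodes and nuclei of the same library. It was 0.165 to 0.411 between plateau and nuclei and 0.728 to 0.878 between small barcodes and plateau. Different libraries correlated at 0.890 to 0.942 for small barcodes, 0.944 to 0.978 for nuclei and 0.970 to 0.988 for the plateau. These are descriptions across genes, which are not independent replicates, and sums of a library share its cells and its reaction. Apoe, which encodes a lipid carrier, measured 8545 ± 1381 CPM (SD, n = 4 libraries here and below) over barcodes of 1 to 9 UMIs, 9968 ± 2306 over those of the plateau and 2456 ± 397 over nuclei of at least 2000 UMIs. Pcdh9, a protocadherin gene with very long introns, went the other way, with 2577 ± 489, 1288 ± 156 and 6313 ± 452 CPM. How much nuclear RNA the small barcodes hold, and how it came there, was not tested. Ambient RNA, which is free RNA captured alongside the nuclei, was not removed from the nuclear sums. How much of it they hold was not tested. Control libraries shared at most 12 nuclear barcodes per pair, or 0.307% of the smaller set.

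**Figure D1:**
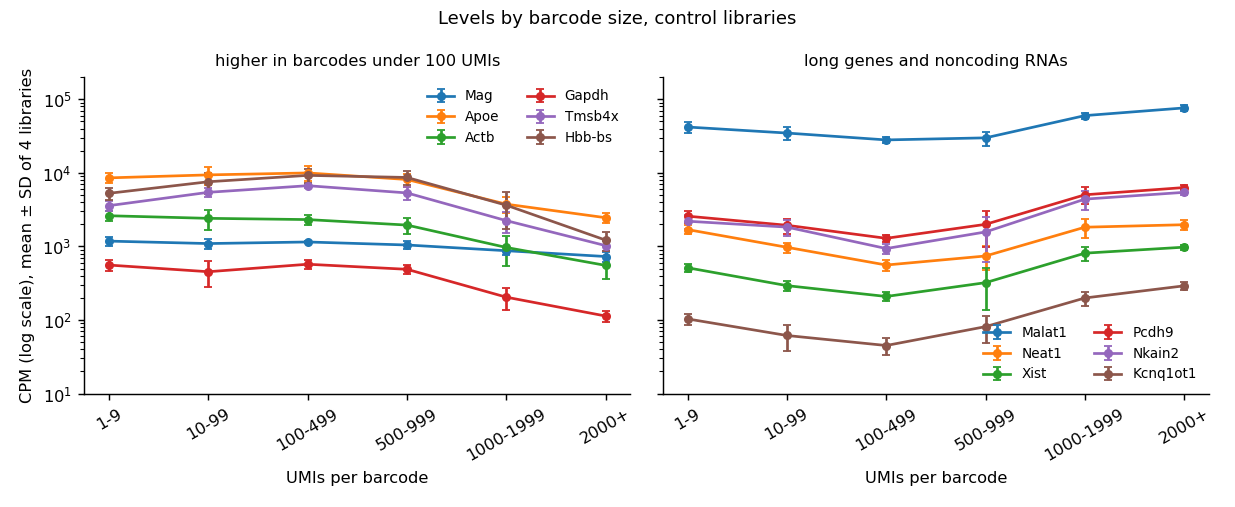
CPM on a log scale (mean ± SD of 4 control libraries) over barcodes binned by their UMIs, for 6 genes higher in small barcodes (left) and 6 long genes or noncoding RNAs (right). Apoe peaked at 9968 CPM in the plateau bin and Pcdh9 had its lowest mean, 1288 CPM, in the same bin.

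The small-barcode and nuclear sums did not overlap in any class of RNA measured, and the small barcodes lay on the side of the plateau each time. Ribosomal protein genes, which encode the protein parts of the ribosome, gave 3.85%, 5.64%, 6.89% and 5.37% of UMIs in the small barcodes of libraries 1 to 4 and 1.04%, 1.53%, 1.96% and 1.65% in the nuclei. All 4 small-barcode sums lay above all 4 nuclear sums, by 3.89 ± 0.879 percentage points, and the plateau gave 7.31% ± 0.543. Nuclear-encoded genes of the respiratory chain gave 0.594% ± 0.0997 in nuclei, 2.00% ± 0.365 in small barcodes and 2.63% ± 0.0508 in the plateau. The lncRNAs took 15%, 13.9%, 12.6% and 14.4% of nuclear UMIs and 9.99%, 8.03%, 7.78% and 8.38% of small-barcode UMIs. The groups did not overlap, and the plateau gave 4.65% ± 0.267. Malat1 alone, an abundant lncRNA of nuclear speckles, accounted for 7.5% ± 0.728 of nuclear and 4.13% ± 0.622 of small-barcode UMIs, and the other lncRNAs for 6.49% ± 0.803 and 4.41% ± 0.601. Protein coding genes other than the 13 mitochondrial ones gave 85.2% ± 0.963 of nuclear and 88.8% ± 0.952 of small-barcode UMIs.

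Genes longer than 100 kb gave 36.8% ± 1.86 of nuclear UMIs, 21.1% ± 2.83 of small-barcode UMIs and 14.2% ± 0.536 of plateau UMIs. Genes shorter than 10 kb gave 18.8% ± 1.28, 32.9% ± 3.04 and 38.8% ± 0.432. In each of these classes all 4 libraries moved the same way, and the exact paired permutation test gave p = 0.13, two-sided, the smallest value that 4 pairs allow. The 13 mitochondrial genes, transcribed outside the nucleus, gave 0.679% ± 0.0589 of nuclear UMIs, 2.57% ± 0.383 of small-barcode UMIs and 3.34% ± 0.470 of plateau UMIs. Nuclei were chosen for low mitochondrial counts, so these shares carry no test.

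**Figure D2:**
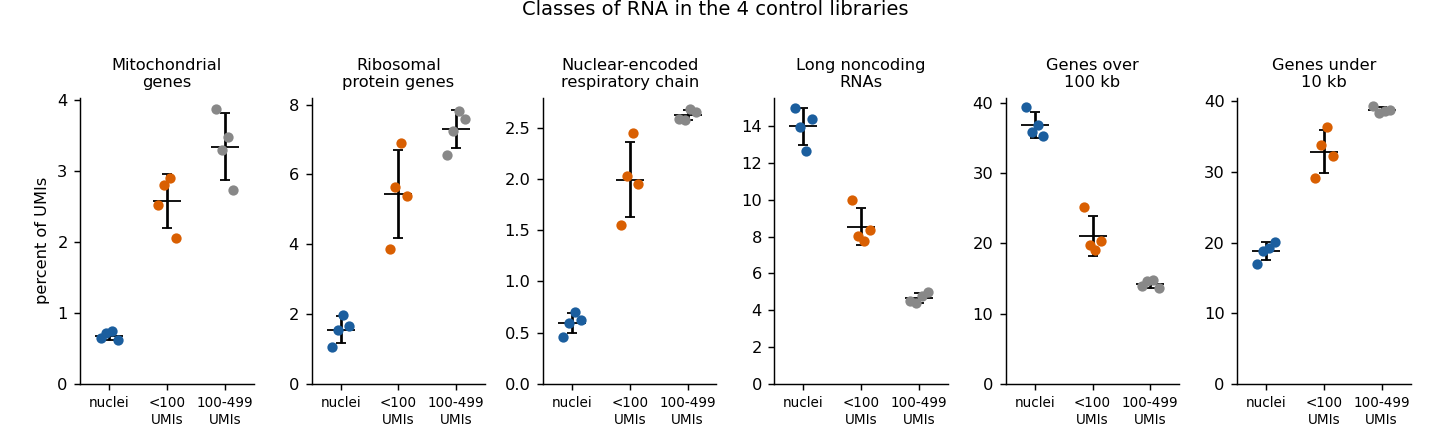
Percent of UMIs from 6 classes of RNA in nuclei, in barcodes under 100 UMIs and in barcodes of 100 to below 500 UMIs. Points are the 4 control libraries, the horizontal line is the mean and the bar the SD; nuclei and small barcodes do not overlap in any panel, and small-barcode means lie between the other means.

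Across 17111 genes tested with the library as a block (edgeR's quasi-likelihood test, Benjamini-Hochberg adjusted p under 0.05 and an absolute log2 difference over 0.5), 4123 (24.1%) were higher in small barcodes and 3585 (21.0%) were higher in nuclei. Of these 7708 genes (45.0% of those tested), 7142 had the same sign in 4 of 4 libraries. The 7708 include the 13 mitochondrial genes, from whose calls nothing is read because nuclei were chosen for low mitochondrial counts. With these genes left out, 4080 of 17098 genes were higher in small barcodes and 3633 in nuclei. Differences toward the small barcodes were larger, with a median log2 difference of 1.12 for genes called higher there and -0.79 for genes called higher in nuclei. Counts over the absolute log2 size of 1 were 2440 and 804, and over the size of 2 they were 305 and 73. In the plateau this order turned, with 1559 genes over the size of 2 toward the plateau and 2070 toward nuclei. The median of all genes tested was -0.06 with TMM scaling and -0.23 when sums were scaled by their total counts alone, which turned the split to 3417 higher in small barcodes and 4972 higher in nuclei. All log2 differences below are small barcodes minus nuclei with TMM scaling, and so lie somewhat above the plain ratio of the CPM values printed beside them. With the plateau in place of the small barcodes, 14019 of 19035 genes (73.6%) were called, 6869 (36.1%) higher in the plateau and 7150 (37.6%) in nuclei. Total counts turned this split to 4622 and 9753, and moved the plateau median of all genes from -0.07 to -0.59. The filter on low counts asked for 1.20 CPM in at least 4 of 8 sums. Of the genes called higher in small barcodes, 115 reached it in all 4 small-barcode sums and not in all 4 nuclear sums, and 349 of those called higher in nuclei did the reverse, calls whose direction the filter may have fixed.

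Among called genes with a mean of at least 50 CPM in the higher sum and the same sign in 4 of 4 libraries, those with the largest differences toward the small barcodes included hormones of neurons outside the nerve. Oxt, which encodes oxytocin of hypothalamic neurons, measured 61.2, 37.7, 614 and 97.4 CPM in the small barcodes of libraries 1 to 4 and 6.88, 4.24, 52.5 and 13.6 CPM in the nuclei. Library 3 was highest in both sums, the groups overlapped across libraries, and within each library the small barcodes were higher, by a log2 difference of 3.42 ± 0.13 (SE, adjusted p = 1.18e-53) and of 3.17 without library 3. Avp, which encodes vasopressin of the same region, measured 24.1, 17.4, 1376 and 45.3 CPM against 3.71, 3.46, 196 and 11.3. Its log2 difference was 2.76 ± 0.14 (adjusted p = 3.73e-40) and 2.43 without library 3, and the call was lost without the library block (adjusted p = 0.122). How such RNA came into these pools was not tested.

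Other genes at the top had more even levels across the libraries. Il31ra, a cytokine receptor gene, measured 272, 306, 203 and 433 CPM in small barcodes and 22, 36.3, 38.0 and 35.5 in nuclei. Mt3, a metallothionein gene, measured 787, 1309, 1416 and 1076 CPM against 147, 173, 118 and 181. All 4 small-barcode values of both genes lay above all 4 nuclear values, and the log2 differences were 3.34 ± 0.11 (adjusted p = 3.73e-61) and 3.04 ± 0.10 (adjusted p = 4.66e-58). The rest of the 10 were Naa38, a subunit of an N-terminal acetyltransferase, Ndufs8 and Ndufa11 of respiratory complex I, S100a1, a calcium-binding protein, Cops9 of the COP9 signalosome, and Gm10076, annotated as a lncRNA. Their log2 differences were 2.58 to 2.87, and 2.91 to 3.09 in the plateau.

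Under the same limits, the largest differences toward nuclei were smaller. Kcnq1ot1, a lncRNA that silences neighbouring genes of an imprinted domain, measured 291, 238, 319 and 286 CPM in nuclei and 116, 84.1, 92.0 and 111 CPM in small barcodes. The groups did not overlap, and the log2 difference was -1.34 ± 0.10 (adjusted p = 5.11e-24). Kcnb2, a voltage-gated potassium channel gene, measured 93.4, 86.8, 219 and 115 CPM in nuclei against 42.7, 29.0, 73.4 and 38.5, a log2 difference of -1.32 ± 0.12. The muscarinic receptor gene Chrm3 (-1.33), the sarcoglycan gene Sgcz (-1.37), the zinc finger gene Zmym6 (-1.39), the ubiquitin ligase gene Marchf3 (-1.56), and the unnamed genes Gm29237 (-1.47), 6430590A07Rik (-1.47), Gm29266 (-1.39) and 5033421B08Rik (-1.37) completed the 10.

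**Figure D3:**
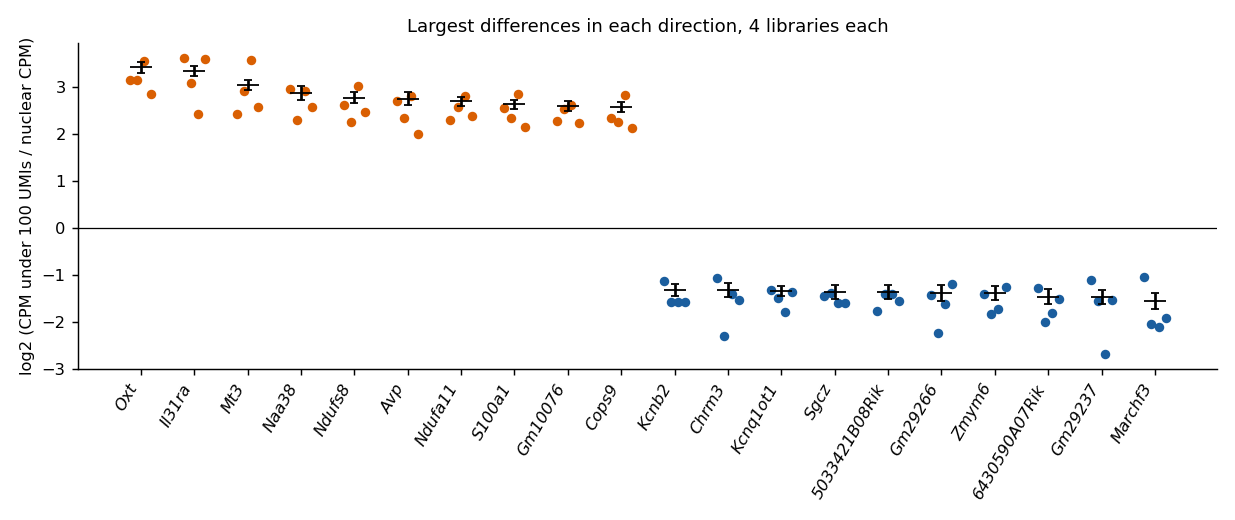
Log2 ratio of small-barcode to nuclear CPM in each of the 4 control libraries (points) for the 10 genes with the largest fitted differences in each direction, among called genes with one sign in 4 libraries and a mean of at least 50 CPM in the higher sum. Horizontal lines are fitted log2 differences and bars their SE; fitted values run from 3.42 for Oxt to -1.56 for Marchf3.

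Gene length in the genome ordered the differences. With tested genes split into 10 groups of equal size by length, from the shortest group (108 to 4730 bp) to the longest (138586 to 2961609 bp), the median log2 difference fell from 0.87 to -0.77, and in the plateau from 1.30 to -1.34. Among the shortest 1703 genes, 891 were higher in small barcodes and 112 in nuclei, and among the longest 1703, 18 were higher in small barcodes and 1263 in nuclei. Of 222 protein coding genes over 500 kb, 0 were higher in small barcodes and 208 were higher in nuclei. Spearman's rho between length and log2 difference across 14047 protein coding genes was -0.68, a description over genes that share libraries. It was -0.59 to -0.65 with the plain ratio of each library alone, and -0.54, -0.69 and -0.83 in protein coding genes of low, middle and high level. Cell Ranger of the version used counts intronic reads by default, and the share of intronic reads in each sum was not tested.

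Short genes with and without introns lay on the same side. The 264 intronless protein coding genes under 10 kb had a median log2 difference of 1.01 (1.75 in the plateau), and the 2414 of that size with introns also had 1.01 (1.54 in the plateau), a comparison without a test. Protein coding genes with 10 or more exons had a median of -0.26, against 0.98 for the 282 with 1 exon. Among genes under 10 kb, 1237 lncRNAs had a median of -0.16 and 2678 protein coding genes one of 1.01. The gap was small at 100 to 500 kb, with -0.69 for 263 lncRNAs and -0.66 for 2140 protein coding genes (-1.90 and -1.04 in the plateau), of which 47.1% and 64.2% were called higher in nuclei. Across all lncRNAs, 294 of 2973 were higher in small barcodes and 754 in nuclei (median -0.40, and -1.68 in the plateau), and rho with length was -0.25.

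**Figure D4:**
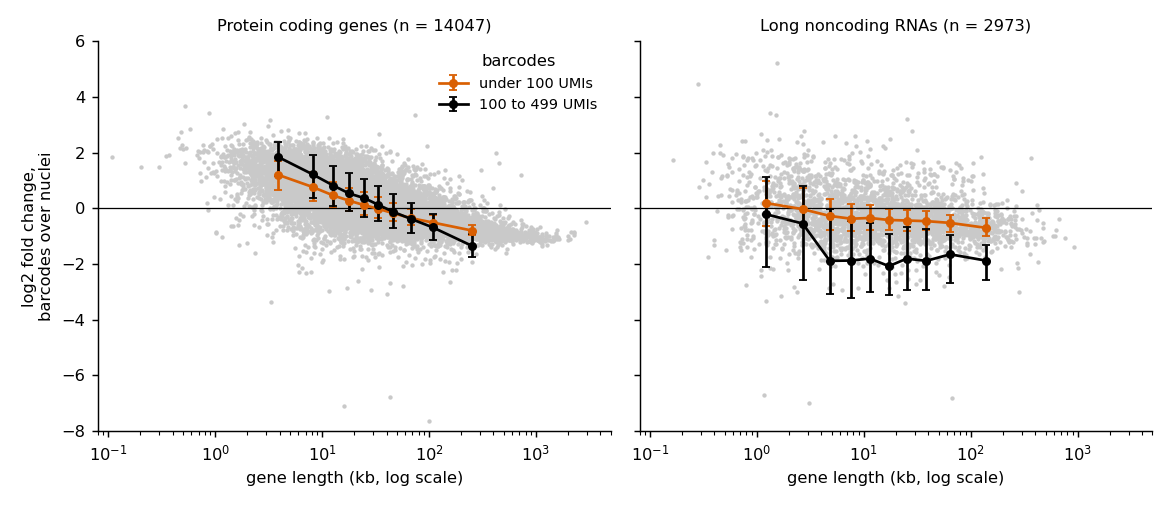
Log2 difference against gene length (kb, log scale) for 14047 protein coding genes (left) and 2973 lncRNAs (right). Grey points are genes for barcodes under 100 UMIs, and lines join medians of 10 length groups with quartile bars, for barcodes under 100 UMIs and of 100 to below 500 UMIs against the same nuclei.

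Of 2631 tested genes over 100 kb, 43 were higher in small barcodes, and the 2 with the highest levels were picked out after their values had been seen. Camk1d (chromosome 2, 5298268 to 5719375, GRCm39), a calmodulin-dependent kinase gene of 421108 bp, averaged 4142 CPM in small barcodes, 6764 CPM in the plateau and 1002 CPM in nuclei, a log2 difference of 2.00 ± 0.11. Its levels were spread widely, with 8007, 5958, 1478 and 1125 CPM in the small barcodes of libraries 1 to 4. In the nuclei they were 1414, 1559, 723 and 313 CPM. The groups overlapped across libraries, and within each library the small barcodes were higher. The log2 ratio of Camk1d ran from 1.03 in library 3 to 2.50 in library 1, a spread that the fitted SE does not show. Cmss1 (chromosome 16, 57122363 to 57427253), a gene of 304891 bp, averaged 4050, 10947 and 1683 CPM, a log2 difference of 1.38 ± 0.10. App, which encodes the amyloid precursor protein, and Hmgb1, a chromatin protein gene, were also among the 43, at 0.63 and 1.10.

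Genes of translation and energy supply lay almost wholly on the side of the small barcodes. Of all genes, 24.1% were called higher there and 21.0% in nuclei, and of protein coding genes under 10 kb 66.0% were called higher in small barcodes. Of 83 ribosomal protein genes, 80 passed the filter on low counts and all 80 were higher in small barcodes, with log2 differences from 0.55 (Rpl7l1) to 2.47 (Rpl21) and a median of 1.97 (plateau 2.81), where the median of all genes was -0.06. Many of these genes have near-identical pseudogenes, so their counts are uncertain. Of 86 nuclear-encoded respiratory chain genes, 82 were tested and 80 were higher in small barcodes, with a median of 1.87 (plateau 2.78). Among the 80, Cox8b and Ndufb4b reached the filter in all 4 small-barcode sums and not in all 4 nuclear sums, so their direction is not read. Ndufs1 (0.22) and Cox4i2 (0.49) did not pass. Of 19 translation factors, 17 were higher in small barcodes and 0 in nuclei (median 1.56, plateau 2.16). Eef1a1, which brings aminoacyl-tRNA to the ribosome, measured 971, 1214, 1284 and 1391 CPM in small barcodes and 328, 459, 573 and 498.5 CPM in nuclei, without overlap. Of 16 glycolysis genes, 13 were higher in small barcodes (median 1.58, plateau 2.12). Gapdh, a central enzyme of the pathway, measured 517, 487, 676 and 551 CPM against 98.9, 106, 131 and 143, a log2 difference of 2.39 ± 0.09 (adjusted p = 3.21e-52). Pfkp (0.11), Hk1 (0.30) and Eno2 (0.47) did not pass.

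Cytoskeleton and secreted protein genes showed the same side, where 24.1% of all genes were called. Of 19 actin and tubulin cytoskeleton genes, 18 were higher in small barcodes (median 1.69, plateau 2.55). Their median length was 4747 bp, and 66.0% of protein coding genes under 10 kb were called higher in small barcodes. Actb, which encodes beta-actin, measured 2251, 2512, 2509 and 3154 CPM in small barcodes and 380, 457, 683 and 815 CPM in nuclei, a log2 difference of 2.37 ± 0.10 (adjusted p = 6.10e-49). Mapt, which encodes the axonal protein tau and spans 100923 bp, was the exception, at -0.90 ± 0.09. All 22 genes of secreted proteins were higher in small barcodes (median 1.23, plateau 2.11), from 0.63 for Col3a1 to 2.17 for Cst3. Apoe, the main lipid carrier made by glia, measured 7947, 10557, 7670 and 8418 CPM against 2173, 2637, 2328 and 3085, a log2 difference of 1.92 ± 0.10. Ptgds, which encodes prostaglandin D synthase of OLs and meninges, averaged 12826 ± 5806 CPM against 4386 ± 1934 CPM, and library 3 was highest in both sums.

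Myelin genes differed among themselves. Of 23 measured myelin protein genes, 15 were higher in small barcodes and 1 in nuclei (median 0.83, plateau 1.77), beside 24.1% and 21.0% of all genes. Mobp, which encodes a structural protein of central myelin, measured 1132, 1399, 1273 and 1221 CPM in small barcodes and 853, 898, 822 and 729 CPM in nuclei, so that all small-barcode values were higher, by a log2 difference of 0.77 ± 0.09 (adjusted p = 2.57e-13). Mbp, whose mRNA is carried into OL processes and translated at the myelin sheath, measured 2458, 3072, 2850 and 2558 CPM against 2591, 2669, 2430 and 2518. Its groups overlapped, and its log2 difference of 0.26 ± 0.09 (adjusted p = 0.0154) did not pass the size threshold. Mag (0.83) and Car2 (0.74), genes of an adhesion protein and carbonic anhydrase of OLs, were higher in small barcodes. Cryab, a small heat shock protein gene, and Cnp, a myelin enzyme gene, had larger values, at 2.04 and 1.57. Gjc3, which encodes an OL connexin, was higher in nuclei, at -0.54.

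RGC bodies lie outside the nerve, and the source of neuronal mRNA in these sums was not tested. The paper describes a cluster of neuronal nuclei in the ON and names neighbouring brain tissue, taken along at dissection, as its likely source. Of 20 genes of RGCs and axons, 16 were tested, 10 were higher in small barcodes and 2 in nuclei (median 0.90, plateau 1.43), where 24.1% and 21.0% of all genes were called. Uchl1, a neuronal ubiquitin hydrolase gene, measured 86.4, 107, 117 and 94.0 CPM in small barcodes and 26.3, 40.3, 39.5 and 39.9 CPM in nuclei, without overlap, a log2 difference of 1.65 ± 0.11. The neurofilament gene Nefl was also higher in small barcodes, at 1.64 ± 0.38, from a mean of 6.57 CPM. Kif5a, a kinesin of axonal transport, was at 0.86 ± 0.11, and Map1b, a microtubule-associated protein of axons, at -0.13 ± 0.10 without a call. Tubb3, a neuronal tubulin, was at 0.63 ± 0.11, a call lost with total counts (0.47) and with nuclei of at least 500 UMIs (0.49). Syt1 (-0.86) and Rbpms (-0.62), the latter an RGC marker that vascular cells also express, were higher in nuclei. Nefh, Prph, Pou4f1 and Pou4f2 were not tested, and Slc17a6 (0.40) was not called. The summed list gave 607, 742, 861 and 785 CPM in small barcodes and 550, 589, 749 and 614 CPM in nuclei. These ranges overlapped, and within each library the small barcodes were higher. In summed libraries, fewer cells of a type and less RNA per cell cannot be told apart.

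On the nuclear side, 10 of 16 lncRNAs known from nuclei were higher in nuclei and 1 in small barcodes (median -0.57, plateau -1.56). Of all genes, 21.0% were called higher in nuclei and 24.1% in small barcodes. Of all lncRNAs tested, the shares were 25.4% and 9.89%. Malat1 measured 76084, 70138, 69001 and 84915 CPM in nuclei and 47456, 36931, 35072 and 45794 CPM in small barcodes, a log2 difference of -0.71 ± 0.12 (adjusted p = 6.76e-08) with no overlap. Xist, which coats the inactive X chromosome, averaged 964 ± 75.3 CPM in nuclei, 500 ± 57.5 CPM in small barcodes and 209 CPM in the plateau. Neat1, which builds paraspeckles, averaged 1969 ± 323 and 1645 ± 202 CPM, a log2 difference of -0.09 ± 0.09 that did not pass, while the plateau lay at 558 CPM and -1.29. Tsix, antisense to Xist, was at -0.56, a call lost without library 2 (-0.48) and with nuclei of at least 500 UMIs (-0.45), and the counting does not rest on a stated strand setting, so the partners may share reads. Peg13, an imprinted lncRNA, was the exception at 1.23, from 25.6 CPM against 12.2 CPM.

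All 20 genes with very long introns were higher in nuclei, in a narrow range from -1.17 to -0.88 (median -1.08, plateau -2.0). Of all genes 21.0% were called higher in nuclei, and of protein coding genes over 500 kb 93.7% were. Most of the 20 encode synaptic or adhesion proteins. Pcdh9 measured 6621, 6600, 6125 and 5589 CPM in nuclei and 3094, 2532, 2265 and 2196 CPM in small barcodes, and Nkain2, which encodes a partner of the sodium pump, measured 5830, 5501, 5351 and 4808 CPM against 2730, 2024, 2040 and 1846. Neither gene's groups overlapped, and the log2 differences were -1.15 ± 0.10 and -1.17 ± 0.10. Of 20 genes of SR splicing proteins and their kinases, 15 did not pass, 3 were higher in nuclei and 2 in small barcodes (median -0.28, plateau -0.45). Of all genes, 21.0% and 24.1% were called. With the plateau, 10 of the 20 were higher in nuclei and 1 in the plateau, beside 37.6% and 36.1% of all genes. Nothing particular to the list is read from these counts. Son (-0.75), a speckle scaffold gene, Luc7l2 (-0.72), a splicing factor gene, and the cyclin gene Ccnl1 (-0.57) were the 3, and Srsf3 (0.70) and Srsf6 (0.55) the 2.

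Transcription factors of ON glia split into both directions, with 8 of 19 higher in small barcodes and 7 in nuclei (median 0.32, plateau 1.01), beside 24.1% and 21.0% of all genes. The 7 were Sox6, St18, Zfp536, Nfib, Zeb2, Nfia and Tcf7l2, at -1.11 to -0.69. The 8 were Nkx6-2, Olig1, Id2, Id3, Sox9, Id4, Olig2 and Sox8, at 0.71 to 1.75. The 7 span 133821 bp (Zeb2) to 568755 bp (Sox6), and the 8 span 2162 bp (Olig1) to 6133 bp (Olig2). St18 measured 1738, 1536, 1566 and 1342 CPM in nuclei and 857, 607, 631 and 586 CPM in small barcodes. Of 17 immediate early genes, which are induced fast by stimuli such as tissue handling, 16 were tested, 11 were higher in small barcodes and 0 in nuclei (median 0.58, plateau 1.31). The median length of the 17 was 4247 bp. Protein coding genes under 10 kb had a median of 1.01 and 66.0% were called higher in small barcodes, so nothing particular to the list is read. Jund was at 1.08 ± 0.10 and Jun at 0.55 ± 0.12, and the call for Jun was lost with total counts (0.39), no filter on low counts (0.42), nuclei of at least 500 UMIs (0.36), thinned sums (0.44) and without library 1 (0.37).

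A list of 10 genes held 8 that the text of the study names for the ON, and Unc5d and Adgrg6, which it does not name. Of the 10, 9 were higher in nuclei and 0 in small barcodes (median -0.80, plateau -1.37). Unc5d (-0.84) and Adgrg6 (-0.51) were among the 9, and the median length of the 10 was 392469 bp. Piezo2, which encodes a mechanically gated ion channel, measured 289, 247, 255 and 286 CPM in nuclei and 179, 96.7, 124 and 163 CPM in small barcodes. The groups did not overlap, and the log2 difference was -0.80 ± 0.10 (adjusted p = 4.15e-12) and -1.57 in the plateau. Tnr, which encodes tenascin-R of the perinodal matrix, averaged 213 ± 13.7 against 110 ± 18.1 CPM (-0.80), the laminin gene Lama2 232 ± 10.3 against 119 ± 17.5 (-0.81), and the protocadherin gene Pcdh15 188 ± 22 against 87.1 ± 25.1 (-0.97). The calcium channel subunit gene Cacna2d3 (-0.99) and the phosphodiesterase gene Pde3a (-1.0) were also higher in nuclei, as was the growth factor gene Pdgfc (-0.55), whose call was lost without library 3 (-0.43, adjusted p = 0.083 by edgeR) and with thinned sums (-0.54, adjusted p = 0.0543). Piezo1, the related channel gene, measured 8.32 ± 0.831 CPM in nuclei and 6.99 ± 2.35 CPM in small barcodes, from 30 counts in the latter, and did not pass (-0.06 ± 0.29).

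**Figure D5:**
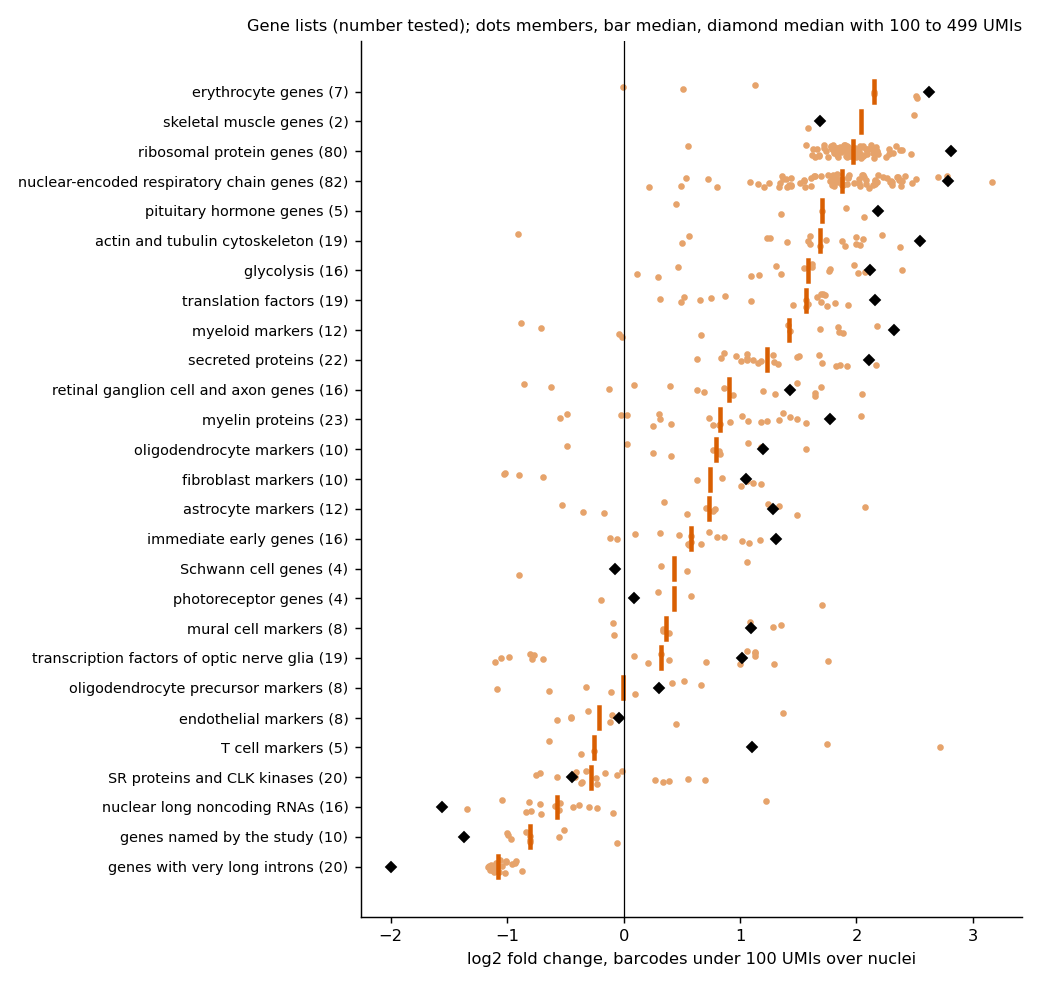
Log2 difference of each tested member (dots) of 27 gene lists, with the number tested in brackets, the list median (bar) and the median with barcodes of 100 to below 500 UMIs (diamond). Lists run from a median of 2.15 for erythrocyte genes to -1.08 for genes with very long introns.

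Marker lists of the cell types differed in their counts, which stand beside 24.1% of all genes called higher in small barcodes and 21.0% in nuclei. Of 10 OL markers, 6 were higher in small barcodes and 0 in nuclei (median 0.79), and of 12 astrocyte markers 8 and 1 (median 0.74). Among the latter, Gfap, the intermediate filament of astrocytes, was at 1.49 ± 0.09 and the bicarbonate transporter gene Slc4a4 at -0.53. Of 10 fibroblast markers, 6 were higher in small barcodes, among them the matrix genes Dcn (1.01) and Col1a2 (1.06), and 4 in nuclei, Trpm3 (-1.03), Sdk1 (-1.02), Adamtsl3 (-0.90) and Ranbp3l (-0.69). The summed list of fibroblast markers ran from 1796 to 2565 CPM in small barcodes and 2426 to 4952 CPM in nuclei. Of 12 myeloid markers, 8 were higher in small barcodes (median 1.42), and C1qa of the complement cascade was at 1.88 ± 0.09, while Dock8 (-0.88) and Mrc1 (-0.71) were higher in nuclei. Of 8 OL precursor markers, 2 were higher in small barcodes (Gpr17 and Neu4) and 2 in nuclei (Lhfpl3 and Vcan, whose call was lost in the plateau with TMM scaling, at -0.22, but not with total counts), shares near those of all genes. Of 8 endothelial markers, Ly6c1 was higher in small barcodes (1.37) and Flt1 in nuclei (-0.57, and without a call at -0.32 when library 3 was left out and at -0.26 with nuclei under 1% mitochondrial), a count from which nothing is read about the list. Of 8 mural cell markers, Tagln and Acta2 were higher in small barcodes. Myh11 was called too, but it reached the filter in all 4 small-barcode sums and not in all 4 nuclear sums, so its direction is not read. Of 6 T cell markers 5 were tested and 3 did not pass. The other two, Cd3d and Cd3g, reached the filter in the small-barcode sums alone, so no direction is read from them.

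RNA of blood cells and of cells that are not part of the ON was measured by further lists. Of 8 erythrocyte genes, 7 were tested and 6 were higher in small barcodes (median 2.15, plateau 2.63), beside 24.1% of all genes. Hbb-bs, an adult beta-globin gene, measured 5156, 6306, 4184 and 6138 CPM in small barcodes and 1184, 1522, 968 and 1904 CPM in nuclei, without overlap, and 9237 CPM on average in the plateau. Mature mouse erythrocytes have no nucleus, and ambient RNA was not removed from the nuclear sums, so their globin values are not read as RNA of nuclei. The alpha-globin genes Hba-a1 and Hba-a2 were at 2.52 and 2.51, and near-identical copies of globin genes may share reads.

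The next counts stand beside 24.1% of all genes called higher in small barcodes. Of 8 pituitary hormone genes, 5 were tested and 4 were higher in small barcodes (Prl, Pomc, Cga and Gh, from 1.35 to 2.07). Pomc was not higher in library 4, with 18.1 CPM in small barcodes and 18.5 CPM in nuclei. The summed list ran from 106 to 5934 CPM in small barcodes and from 43.6 to 1988 CPM in nuclei, and library 3 was highest in both. Gh, which encodes growth hormone, measured 36.1, 120, 2721 and 48.7 CPM against 8.62, 37.0, 622 and 17.7 CPM. Without library 3 its log2 difference was 1.89, and that of Prl 1.41. Without the library block all 4 calls were lost (adjusted p = 0.162 to 0.466 by edgeR), and that of Cga was also lost with DESeq2 (adjusted p = 0.0868). Of 7 Schwann cell genes, 4 were tested and Pmp22, which other cells also express, was higher in small barcodes (1.06). Of 8 skeletal muscle genes, 2 were tested, Mylpf (1.58) and Pvalb (2.50), both higher in small barcodes at under 10 CPM.

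The same comparison in the 4 libraries labelled cKO, which share no library with the above, called 7112 of 17150 genes (41.5%), 3901 (22.7%) higher in small barcodes and 3211 (18.7%) higher in nuclei. Over 16785 genes tested in both sets, Pearson's r of the log2 differences was 0.863, a description across genes. Of 7656 genes called in the control libraries, 7582 (99%) had the same sign in the libraries labelled cKO, and 5946 were called in both with the same sign, which is 77.7% of the control calls and 84.3% of the 7056 cKO calls. The interaction of compartment and genotype passed for 0 of 16997 genes (edgeR, adjusted p), with 771 (4.54%) under an unadjusted p of 0.05. A p that misses the threshold does not show that the genotypes were alike. Piezo2 measured 302, 356, 359 and 331 CPM in the nuclei of the libraries labelled cKO and 116, 189, 148 and 181 CPM in their small barcodes, a log2 difference of -0.95 beside -0.80 in control libraries. Counts of 3' ends outside the deleted exons do not check that deletion.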

How the data were processed

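Nuclei of ONs were profiled by droplet snRNA-seq (10x Next GEM 3' v3.1) in 8 libraries, of which the 4 Piezo2f/f control libraries were compared here. Per the submitters' processing notes, the authors aligned and counted reads with Cell Ranger 7.0.0 on GRCm39, and the deposited values are raw UMI counts per gene and barcode, with all barcodes listed. The study's removal of ambient RNA and of doublets is not part of these counts, and no doublet caller was run. Counts were summed per library over nuclei (at least 1000 UMIs, mitochondrial genes under 5%) and over barcodes of fewer than 100 UMIs. The 8 sums were tested with edgeR 4.0.16 in R 4.3.3 (quasi-likelihood test, TMM, low counts removed by filterByExpr, library as a block), with p-values adjusted by Benjamini-Hochberg over all genes tested and the study's size threshold, an absolute log2 fold change over 0.5. The SE of a fold change is its size divided by the square root of F. It rests on a variance that edgeR moderates across genes. Class shares were compared by exact paired permutation tests (NumPy 2.4.6, Python 3.11.15). DESeq2 1.42.0 served as an alternative, together with other scalings, filters, barcode limits and left-out libraries. The tests were checked on simulated counts.

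Control libraries held 39628926 to 48784051 UMIs, 25063 to 25678 genes were detected in the nuclear sums and 18362 to 19586 in the small-barcode sums. The lower depth of the latter limits the precision of low genes. Gene lengths, exons and biotypes came from the GENCODE annotation of GRCm39, which matched 33185 of 33696 genes (98.48%); a planned feature of the encoded proteins was not analysed here. Named genes were, in each direction, the 10 with the largest fold change among called genes with the same sign in 4 of 4 libraries and a mean of at least 50 CPM in the higher sum, mitochondrial genes left out, the 4 members of each list with the highest mean CPM, and 8 genes that the study names. Some members that the rule picks are not reported here, and further members and exceptions within lists were named after their values had been seen. The comparison, the lists and the genes were chosen with earlier results of these data known, and the plateau of 100 to below 500 UMIs was added after the data had been seen.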

Additional observations from a re-analysis of the deposited data

Results flagged for a closer look

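For 127 named genes with a finite log2 ratio of small-barcode to nuclear CPM in each of the 4 control libraries, 1 library stood far from the other 3 in 8 cases, by Dixon's test at the 95% level. Chance gives about 1 in 20. Library 1 stood apart for Kcnb2 (-1.13, others -1.58 to -1.57), Tubb3 (0.11, others 0.55 to 0.59), Cdh5, a cadherin of endothelial cells (0.45, others -0.84 to -0.64), and Pdgfrb, a growth factor receptor of mural cells (0.12, others -0.38 to -0.31). Library 2 stood apart for Ddx5, an RNA helicase gene (-0.36, others -0.13 to -0.09). The 8 cases also include library 2 for the mitochondrial gene mt-Nd4l (1.74, others 1.11 to 1.21). Nuclei were chosen for low mitochondrial counts, so nothing is read from that case. Library 4 stood apart for the beta-globin genes Hbb-bs (1.69, others 2.05 to 2.12) and Hbb-bt (1.63, others 2.08 to 2.15), which may share reads.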

How the results depend on the processing

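The main counts of 4123 genes higher in small barcodes and 3585 higher in nuclei moved most with the barcodes chosen. Barcodes of 10 to 99 UMIs, whose sums held 30467 to 95138 UMIs, gave 998 and 2241 and left 20 named genes without their call, and the plateau gave 6869 and 7150 (6751, 6788, 7126 and 6887, and 7006, 7081, 6916 and 7161, without libraries 1 to 4, and 4622 and 9753 with total counts). DESeq2 gave 3813 and 3120, no filter on low counts 3567 and 4579, thinning to the smallest total 3025 and 2660, and leaving out each library 3938 to 4128 and 3089 to 3574. Without the replicate block the counts were 3718 and 2916, and 9 named genes lost their call, among them Avp, Gh, Prl, Pomc, Cga, Acta2, Flt1 and Ranbp3l. The libraries labelled cKO gave 14313 called genes in the plateau against 7112, and 6499 without the replicate block. The interaction gave 0 to 1 genes with each library left out (Il31ra without control library 3, Oxt without cKO library 12) and 0 in the plateau.

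Class differences in percentage points with 10 to 99 UMIs and with the plateau were 4.85 and 5.76 for ribosomal protein genes, 1.70 and 2.03 for respiratory chain genes, 5.27 and 6.80 for protein coding genes other than mitochondrial ones (5.39 as a share without mitochondrial counts) and -7.39 and -9.35 for lncRNAs (-4.41 with nuclei of at least 500 UMIs).

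The sign of the log2 difference turned for genes near 0 or at low counts. With the plateau and TMM scaling it was 0.26 for Map1b, 0.27 for Ddx5, 0.16 for Ptprz1, 0.16 for Slc1a3, 0.23 for Cdh5 and 0.27 for Pdgfrb, but with the plateau and total counts these genes kept the sign of the small barcodes, at -0.27, -0.26, -0.37, -0.37, -0.30 and -0.25, so no turn is read from them. With the plateau it was also 0.71 for Abcb1a (0.19 with total counts), 0.67 for Il7r (0.14 with total counts), -1.91 for Pde6b (-2.45) and -0.0732 for Egr2 (-0.60), and with the plateau and total counts -0.0735 for Pdgfra and -0.16 for Pde6a. With 10 to 99 UMIs, where TMM scaling put the median of all genes at -0.74, it was -0.27 for Mbp and -0.44 for Pdgfra, from which no turn is read, and a fitted -7.61 for Pde6a, which was at 0 in those sums, so that this value is no size. With nuclei of at least 2000 UMIs it was 0.0157 for Ddx5, 0.14 for Skap1, 0.0279 for Il7r and 0.0589 for Piezo1. With nuclei under 1% mitochondrial it was 0.0164 for Ddx5, 0.17 for Abcb1a and 0.12 for Pdgfrb, and with thinned sums 0.17 for Abcb1a and 0.0106 for Pdgfrb. Pdgfra was -0.0659 with total counts and -0.0332 with no filter. With each library left out in turn, Neat1 ran from -0.13 to 0.0206, Ddx5 from -0.0348 to 0.0566, Pdgfra from -0.003 to 0.22, Sag from -0.59 to 0.0659, Pde6a from -0.14 to 0.96 and Piezo1 from -0.17 to 0.0882. List medians turned for OL precursor, endothelial, T cell, photoreceptor or Schwann cell genes in some settings. The cause of the other moves was not tested. Depth limits the small-barcode sums, which held 7 tested genes at 0.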

Other observations

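Genes were looked for that stood higher in small barcodes than in both the plateau and the nuclei of each of the 4 control libraries, and those named here were picked after their values had been seen. The widest gap at 50 CPM or more was that of mt-Nd6, the gene of a complex I subunit and the only mitochondrial protein gene on the light strand, with 522 ± 76.6 CPM (SD, n = 4) in small barcodes, 169 ± 48.2 in the plateau and 45.3 ± 5.05 in nuclei. The cytochrome oxidase gene mt-Co3, on the heavy strand, measured 4024, 7366 and 1395 CPM in the same order. Glp2r, a peptide receptor gene, measured 330 ± 188 CPM in small barcodes, 107 ± 13.6 in the plateau and 147 ± 28.7 in nuclei, and library 3 carried the highest small-barcode value, 611 CPM. Rpgrip1, a gene of the photoreceptor cilium, measured 61.4 ± 26.0, 27.3 ± 4.48 and 23.9 ± 2.98 CPM. Snhg20, a small nucleolar RNA host gene, measured 170 ± 26.1, 76.8 ± 11.9 and 89.9 ± 27.4 CPM. Il31ra measured 304 ± 96.2, 188 ± 29.9 and 33.0 ± 7.39 CPM.

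Oxt showed the same order on average, with 203 CPM in small barcodes, 105 CPM in the plateau and 19.3 CPM in nuclei, and library 3 had the highest value in each.

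The spread of the log2 ratio over the 4 libraries had a median SD of 0.197 across 4422 genes. Among the genes with the widest spread, Pomc ran from -0.03 in library 4 to 1.86 in library 3, and Glp2r from 0.32 to 2.02.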
